A study of Homo sapiens with 45 samples.

Results

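Untreated HAP1 cells labelled ZNF598 KO were compared with untreated HAP1 cells labelled AAVS1, with 3 mRNA sequencing libraries of each. These 6 libraries, taken by their labels, are part of a series of 45 libraries in 15 groups. HAP1 is a near-haploid adherent human cell line derived from the chronic myeloid leukaemia line KBM-7. The AAVS1 line, named after a locus commonly targeted to make edited control cells, is the reference here. The labels do not say which edit either line carries, or how many clones each line stands for, so an effect of losing ZNF598 and a difference between 2 separately grown lines cannot be told apart in these 6 libraries. A pair of other comparisons was set beside it. Both use the line labelled ZNF598 KO, so they cannot tell the 2 apart either. The first used 3 ZNF598 KO and 3 AAVS1 libraries from cells treated for 4 h with 5 µM azacytidine (azaC), a cytidine analogue, none of which the untreated comparison uses. The second set the untreated ZNF598 KO libraries against the 12 untreated libraries of the other 4 edited lines, RNF25 KO, GCN2 KO, RNF25 GCN2 DKO (a double knockout) and eS31 K113R. In 2 of the untreated eS31 K113R libraries the title reads eS32_K223R, and they were kept by their described column name.

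ZNF598 is a ubiquitin ligase that recognises ribosomes that have collided on an mRNA. It attaches ubiquitin to eS10 and uS10, proteins of the small ribosomal subunit encoded by RPS10 and RPS20, and the ASCC complex then splits the marked ribosome. RACK1 holds the site on the ribosome where ZNF598 acts. EDF1, GIGYF2 and EIF4E2 lower translation of the affected mRNA, GCN1 and GCN2 (gene EIF2AK4) start the integrated stress response, and the kinase ZAK (gene MAP3K20) starts the ribotoxic stress response.

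The 6 libraries held 1229695 to 1931205 counts each, and 11078 genes entered the test. Over all 45 libraries, the median tested gene had 27 to 66 counts per library. Each change is given on the log2 scale with the SE of edgeR's quasi-likelihood fit (n = 3 libraries per group), with p-values Benjamini-Hochberg adjusted over all tested genes. Levels are CPM values, counts scaled to the TMM-adjusted size of each library. A gene passed the test at an adjusted p under 0.05. Replicates are labelled only as biological, so p-values measure the spread between libraries, estimated over all 45 libraries in 15 groups. AAVS1 replicate 2 stood apart: its log2 counts fell by 0.46 for each 10% more GC in the transcript, while the other 5 libraries had slopes of -0.03 to 0.08. Of the 15 haematopoietic markers looked up, 9 had 0 counts in all 6 libraries, among them CD34, SPI1, GATA1 and CD33. PTPRC had 1 count in all. TAL1 was detected, with 88 counts in AAVS1 and 95 in ZNF598 KO, and RUNX1 had 18 and 5. The summed levels of these 15 markers were 17 to 23.6 CPM in ZNF598 KO and 19.9 to 27.5 CPM in AAVS1. Those of 12 epithelial markers were 33.3 to 63.2 and 20.5 to 45.6 CPM, of 12 mesenchymal markers 625.7 to 749 and 539 to 832 CPM, and of 12 neural markers 193 to 219 and 106 to 210 CPM, so the ranges of the 2 lines overlapped for each of these 4 lists. BCR and ABL1, the fusion partners of the parental leukaemia, were the exception: their summed level was 13.2 to 21.9 CPM in ZNF598 KO and 2.99 to 12.9 CPM in AAVS1, with 42 against 31 counts of BCR and 53 against 6 of ABL1. ABL1 differed by 2.88 ± 0.82 and did not pass (adjusted p = 0.0799). The median change of these 2 genes was 1.57, against 1.02 without AAVS1 replicate 2 and 0.48 in the azaC-treated libraries.

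The mRNA of ZNF598 itself was still detected in the line labelled as its knockout, with lower values than in AAVS1. ZNF598 (ENSG00000167962, GRCh38, chromosome 16, 1997654 to 2009823, minus strand) stood at 74.9, 56.9 and 55.9 CPM in AAVS1 and at 41.9, 30.5 and 39.2 CPM in ZNF598 KO. The 2 groups did not overlap, yet the difference of -0.74 ± 0.20 missed the threshold (adjusted p = 0.0631). It passed when the replicate number was fitted as a block (adjusted p = 0.0267) and with offsets corrected for GC content (-1.11, adjusted p = 0.00145). In azaC-treated cells ZNF598 stood at 87.2, 88.8 and 93.5 CPM in AAVS1 and at 47.5, 42.8 and 46.6 CPM in ZNF598 KO, and it passed there (-0.98 ± 0.20, adjusted p = 0.0033). It was also lower than in the other 4 untreated lines (-1.01 ± 0.17, adjusted p = 9.4e-05), whose libraries lay between 58.0 and 98.6 CPM. An edit that stops the protein need not remove the mRNA, so the label is checked here only by these lower values. Exons of the opposite strand cover 10.7% of the length of its exons.

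The partners of ZNF598 in sensing collided ribosomes did not pass the test against AAVS1. Of 22 tested genes of this machinery, ZNF598 included, 0 were called higher and 0 lower, against 0.93% of all 11078 genes, and their median change was -0.13 beside 0.00 for all genes. RACK1 stood at 1084, 519 and 1131 CPM in AAVS1 and 1046, 938 and 1013 CPM in ZNF598 KO (0.13 ± 0.17). EDF1 stood at 208, 28.4 and 207 CPM in AAVS1 and at 198, 173 and 191 CPM in ZNF598 KO (0.36 ± 0.27). The low value in both genes came from AAVS1 replicate 2, the library with the strong GC slope. The translational repressors GIGYF2 (-0.22 ± 0.22) and EIF4E2 (-0.02 ± 0.18), the splitting factors ASCC2 (0.01 ± 0.27) and ASCC3 (0.02 ± 0.31), and the sensors GCN1 (-0.19 ± 0.17), EIF2AK4 (-0.11 ± 0.23) and MAP3K20 (0.23 ± 0.19) had changes close to their errors. N4BP2, an endonuclease related to those that cut mRNA at stalled ribosomes, had the smallest p after ZNF598 (-0.76 ± 0.34, adjusted p = 0.452). It passed against the other 4 untreated lines (-1.02 ± 0.28, adjusted p = 0.0405), but with azaC its change was 0.10 ± 0.33. The deubiquitinases that act on the small subunit, USP10 (-0.37 ± 0.17), USP21 (-0.42 ± 0.51) and OTUD3 (-0.27 ± 0.38), did not pass either. OTUD1 (-0.41 ± 0.81), the ligases CNOT4 (0.04 ± 0.28), RNF10 (-0.05 ± 0.22) and RNF14 (-0.72 ± 0.41), and G3BP1 (-0.14 ± 0.16), GIGYF1 (-0.02 ± 0.36), ASCC1 (-0.91 ± 1.08) and TRIP4 (-0.00 ± 0.23) complete the 22 genes, and RNF25 had too few counts to test.

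The mRNAs of the ribosomal proteins that carry ubiquitin did not pass either. RPS10, the gene of eS10, stood at 1149.9, 957 and 1232 CPM in AAVS1 and 1542, 891 and 1429 CPM in ZNF598 KO (0.21 ± 0.26). RPS20, the gene of uS10, stood at 1655, 1216 and 1936 CPM in AAVS1 and 1773, 1066 and 1781 CPM in ZNF598 KO (-0.06 ± 0.21). In both genes the 2 groups overlapped, with replicate 2 lowest in each line. RPS3 (0.17 ± 0.23), RPS2 (0.45 ± 0.17) and RPS27A, which encodes eS31 (-0.27 ± 0.29), did not pass, with adjusted p of 0.337 or more in the 5 genes. The whole list of 80 ribosomal protein genes had 0 members called and a median change of -0.05.

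Across all genes, 103 passed: 63 were higher and 40 lower in ZNF598 KO, or 0.93% of the genes tested (0.569% higher and 0.361% lower). The median size of a called change was 2.30 on the log2 scale, 88 of the 103 genes differed by more than 2-fold, and 34 by more than 16-fold. In 101 of the 103 genes the 3 libraries of one line lay outside the range of the other, as they did in 11.3% of all tested genes. The count of calls depended on the fit. It was 199 with the replicate number as a block, 23 when only the 6 libraries compared were fitted, and 65 (33 higher and 32 lower) without AAVS1 replicate 2. It was 68 without AAVS1 replicate 1, 65 without ZNF598 KO replicate 3, and 67 without ZNF598 KO replicate 1. Of the 103 genes, 43 passed whichever single library of the 6 was left out, and 22 passed under every alternative that gave them a value. None of the 103 changed sign under any of these alternatives. The genes described next come first from these 22, a set chosen after the values were seen.

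**Figure D1:**
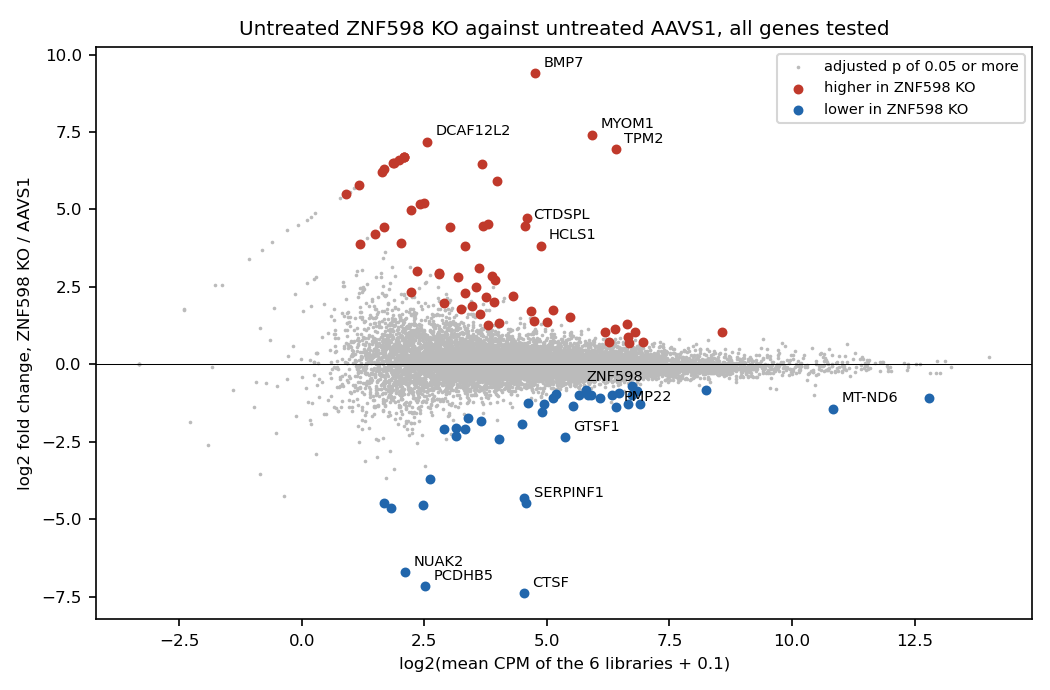
Log2 fold change of untreated ZNF598 KO over untreated AAVS1 (y axis) against log2 of the mean CPM of the 6 libraries plus 0.1 (x axis) for the 11078 tested genes. Red points are the 63 genes called higher in ZNF598 KO, blue points the 40 called lower and grey points the rest; ZNF598 itself is grey, at -0.74.

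Several genes that were near or at 0 in AAVS1 were well expressed in ZNF598 KO. TPM2 (ENSG00000198467, chromosome 9, 35681992 to 35690121, minus strand), which encodes beta-tropomyosin, an actin-binding protein of muscle and other cells, stood at 1.72, 0.998 and 1.28 CPM in AAVS1 and at 177, 139 and 188 CPM in ZNF598 KO. The groups were far apart, and TPM2 had the smallest p of all genes (6.95 ± 0.52, adjusted p = 4.4e-13). MYOM1, which encodes myomesin of the muscle M-band, stood at 0, 0.998 and 0.642 CPM in AAVS1 and 142, 78.8 and 143 CPM in ZNF598 KO, with 3 counts against 619. That is a 190-fold ratio, with an exact 95% interval of 64.7 to 923 that covers counting error only. BMP7, a secreted ligand of the TGF-beta family, had 0 counts in the 3 AAVS1 libraries and stood at 41.2, 59.2 and 62.0 CPM in ZNF598 KO, at least 86.5-fold higher against a floor of 3 counts over the AAVS1 group. SHISA2, which modulates Wnt and FGF receptors, stood at 0, 0.499 and 0 CPM in AAVS1 and 23.3, 27.0 and 25.4 CPM in ZNF598 KO. The homeobox gene HOXC9 stood at 1.72, 0.998 and 0.642 CPM in AAVS1 and 28.6, 25.3 and 25.4 CPM in ZNF598 KO (4.53 ± 0.72, adjusted p = 1.1e-04), and exons of other genes overlap 9.71% of its exon length on the opposite strand. No AAVS1 library reached the lowest ZNF598 KO library in any of these genes.

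The same genes were low in most of the other edited lines, but not in all. TPM2 lay between 2.73 and 15 CPM in the 12 untreated libraries of the other 4 lines (ZNF598 KO minus their mean 4.67 ± 0.25, adjusted p = 2.5e-18). MYOM1 lay between 0 and 4.03 CPM there (7.19 ± 0.42, adjusted p = 7.9e-17). TPM2 and MYOM1 were thus higher in ZNF598 KO than in each of the other 5 lines. HOXC9 was at 0 to 0.947 CPM in RNF25 KO, RNF25 GCN2 DKO and eS31 K113R, and at 1.45 to 9.34 CPM in GCN2 KO. BMP7 was at 0 in RNF25 KO and RNF25 GCN2 DKO and at 0.609 to 3.82 CPM in eS31 K113R, but at 38.2 to 44.3 CPM in GCN2 KO, near the level of ZNF598 KO. SHISA2 was at 2.49 to 8.89 CPM in RNF25 KO and RNF25 GCN2 DKO and at 0.727 CPM or less in GCN2 KO and eS31 K113R.

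The largest fall was that of CTSF, which encodes cathepsin F, a cysteine protease of the lysosome. CTSF (ENSG00000174080, chromosome 11, 66563463 to 66568841, minus strand) stood at 48.2, 29.4 and 60.4 CPM in AAVS1 and at 0, 0.575 and 0 CPM in ZNF598 KO, with 209 counts against 1. Its change was -7.38 ± 0.58 (adjusted p = 1.3e-12), a ratio of 227 with an exact 95% interval of 40.3 to 9011. SERPINF1, which encodes the secreted factor PEDF, fell from 57.7, 25.4 and 53.3 CPM to 0.665, 2.87 and 2.12 CPM (-4.47 ± 0.38, adjusted p = 1.3e-11). GTSF1, a zinc finger protein known from the piRNA pathway of germ cells, fell from 61.1, 71.4 and 74.5 CPM to 6.65, 12.6 and 20.7 CPM (-2.34 ± 0.33, adjusted p = 5.9e-06). The groups did not overlap in these 3 genes. The 12 libraries of the other edited lines held CTSF at 13.0 to 56.7 CPM, SERPINF1 at 17.5 to 46.7 CPM and GTSF1 at 42.6 to 163 CPM, all above the ZNF598 KO libraries. The test against their mean gave -6.93 ± 0.55 for CTSF (adjusted p = 1.3e-12), -3.86 ± 0.35 for SERPINF1 and -2.62 ± 0.29 for GTSF1 (adjusted p = 1.4e-08).

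TPM2 had the smallest p of the genes called higher and CTSF of those called lower, and sequence before the start of each is shown for that reason. It comes from the RefSeq promoter table (GRCh38.p14), 5′ to 3′ on the minus strand with each CG dinucleotide in capitals. The RefSeq start lies inside the gene span given above in both genes, because other annotated transcripts start earlier, so only the longest run without an annotated exon is printed from the 250 bases before it. For TPM2 this is chr9:35690122-35690306, 185 bases before the whole gene. For CTSF it is chr11:66568607-66568717, 111 bases that directly precede the RefSeq start and lie inside the wider gene span.
TPM2: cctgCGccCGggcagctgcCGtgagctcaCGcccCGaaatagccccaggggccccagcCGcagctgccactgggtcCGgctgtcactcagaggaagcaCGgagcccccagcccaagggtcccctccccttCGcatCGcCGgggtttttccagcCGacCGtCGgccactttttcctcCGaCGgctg
CTSF: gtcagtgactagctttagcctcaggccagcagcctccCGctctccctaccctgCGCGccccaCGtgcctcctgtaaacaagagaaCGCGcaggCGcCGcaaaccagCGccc
The printed stretch of TPM2 holds 16 CG dinucleotides and that of CTSF 9. In the whole 300-base promoter windows, which end 50 bases after the start, TPM2 had 24 CG dinucleotides and CTSF 22. Of all promoters, 33.7% had at least as many as TPM2 and 37.6% at least as many as CTSF, so neither is unusual by this count. The median window held 20.5 for the 44 of 63 genes called higher that had one, 23.5 for 30 of the 40 called lower, and 27 for 8249 of the 11078 tested genes. No methylation was measured in these data.

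Other genes fell to 0 or near it against AAVS1, and their levels in the other lines varied from gene to gene. PCDHB5, a protocadherin of a family of close copies whose reads may be shared, stood at 10.3, 12 and 11.6 CPM in AAVS1 and had 0 counts in the 3 ZNF598 KO libraries, at least 19.6-fold lower. NUAK2, a kinase related to AMPK, stood at 8.61, 4.49 and 12.2 CPM in AAVS1 and had 0 counts in ZNF598 KO, at least 13.8-fold lower. NUAK2 was also at 0 to 1.37 CPM in RNF25 KO and RNF25 GCN2 DKO, while it was at 18.2 to 28.0 CPM in GCN2 KO and 7.92 to 25.2 CPM in eS31 K113R. PCDHB5 was at 0 to 1.37 CPM in RNF25 KO and RNF25 GCN2 DKO and at 8.56 to 10.0 CPM in GCN2 KO, and in eS31 K113R it was low, at 1.22 to 3.84 CPM, unlike NUAK2. The cell adhesion gene CADM1 fell from 49.9, 43.9 and 37.9 CPM to 2.66, 1.15 and 2.65 CPM (-4.30 ± 0.59, adjusted p = 2.9e-06), and it was at 0.91 to 23.6 CPM in the other edited lines. Against their mean CADM1 did not pass (-1.48 ± 0.59, adjusted p = 0.325), with 0.91 to 4.26 CPM in GCN2 KO and eS31 K113R. FUCA2, a secreted fucosidase, and MCCC2, a subunit of a leucine-degrading carboxylase of mitochondria, had 2 and 1 counts in ZNF598 KO against 52 and 28 in AAVS1, ratios of 28.2 (7.44 to 239) and 30.4 (5.03 to 1244). FUCA2 at 3.11 to 20.2 CPM and MCCC2 at 3.84 to 13.1 CPM were present in every untreated library of the other edited lines, and both were lower in ZNF598 KO than there (-4.31 ± 0.74, adjusted p = 2.2e-04, and -4.80 ± 0.76, adjusted p = 5.4e-05). NUAK2, FUCA2 and MCCC2 passed in every fit that left out 1 library, but not in the fit to the 6 libraries alone. With azaC, FUCA2 passed (-6.98 ± 1.17, adjusted p = 2.1e-04) and MCCC2 did not (-1.60 ± 0.65, adjusted p = 0.511).

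A set of genes divided ZNF598 KO, RNF25 KO and RNF25 GCN2 DKO from AAVS1, GCN2 KO and eS31 K113R, and it included some of the most stable calls. Levels within a side could still differ, as for FASTKD2. HCLS1, a cortactin-like protein of blood cells, stood at 8.61, 1.5 and 2.57 CPM in AAVS1 and 62.5, 39.1 and 60.9 CPM in ZNF598 KO (3.83 ± 0.46, adjusted p = 1.2e-07). It lay at 45 to 106 CPM in RNF25 KO and RNF25 GCN2 DKO and at 5.48 to 11.6 CPM in GCN2 KO and eS31 K113R. FASTKD2, a mitochondrial RNA-binding protein, stood at 0, 0.499 and 0 CPM in AAVS1 and 6.65, 12.6 and 11.7 CPM in ZNF598 KO, with 13.7 to 27.4 CPM in RNF25 KO and RNF25 GCN2 DKO and 0 to 0.727 CPM in GCN2 KO and eS31 K113R. DCAF12L2, a WD-repeat protein of the X chromosome, had 0 counts in AAVS1, GCN2 KO and eS31 K113R, and stood at 7.31, 10.3 and 17 CPM in ZNF598 KO and 9 to 20.6 CPM in RNF25 KO and RNF25 GCN2 DKO. The myelin gene PMP22 went the other way. It stood at 116, 116 and 134 CPM in AAVS1 and 49.2, 50.6 and 40.8 CPM in ZNF598 KO (-1.38 ± 0.20, adjusted p = 1.5e-05), with 29.8 to 55.6 CPM in RNF25 KO and RNF25 GCN2 DKO and 129 to 172 CPM in GCN2 KO and eS31 K113R. These genes were picked for this pattern after the values were seen, so it is given as a description.

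In other genes ZNF598 KO lay near the 4 other edited lines and AAVS1 was the line that stood apart. CTDSPL, a small phosphatase, stood at 3.44, 2 and 0.642 CPM in AAVS1 and 41.9, 46.0 and 45.6 CPM in ZNF598 KO (4.48 ± 0.38, adjusted p = 1.3e-11), and at 38.4 to 54.2 CPM in the other 4 lines (difference from ZNF598 KO -0.03 ± 0.20). OCIAD2 stood at 1.72, 0 and 0 CPM in AAVS1, 34.6, 30.5 and 27.5 CPM in ZNF598 KO and 23.2 to 63.6 CPM in the other lines. EMC10, a subunit of the complex that inserts proteins into the endoplasmic reticulum membrane, stood at 2.58, 4.49 and 4.50 CPM in AAVS1, 25.9, 25.9 and 28.6 CPM in ZNF598 KO and 20.7 to 43.0 CPM in the other lines. The Wnt antagonist SFRP1, the transcription factor DMRTA2 and the X-linked gene NEXMIF were also lowest in AAVS1, at 2.57 CPM or less, but the other lines differed among themselves. In GCN2 KO all 3 libraries lay below the ZNF598 KO libraries, at 7 to 19.1 against 25.9 to 77.6 CPM for SFRP1, 5.45 to 11.8 against 21.3 to 29.3 CPM for DMRTA2 and 5.45 to 13.6 against 13.8 to 22.4 CPM for NEXMIF. NEXMIF was above ZNF598 KO in RNF25 KO and RNF25 GCN2 DKO, at 28.7 to 49.3 CPM. SFRP1 rose by 4.74 ± 0.53, DMRTA2 by 4.45 ± 0.52 and NEXMIF by 3.82 ± 0.57 against AAVS1, and their differences from the mean of the other lines were 0.59 ± 0.27, 0.53 ± 0.27 and -0.22 ± 0.31 (adjusted p = 0.482, 0.556 and 0.959). For these 6 genes the comparison with AAVS1 alone gives a call, and the one with the mean of the other edited lines does not.

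**Figure D2:**
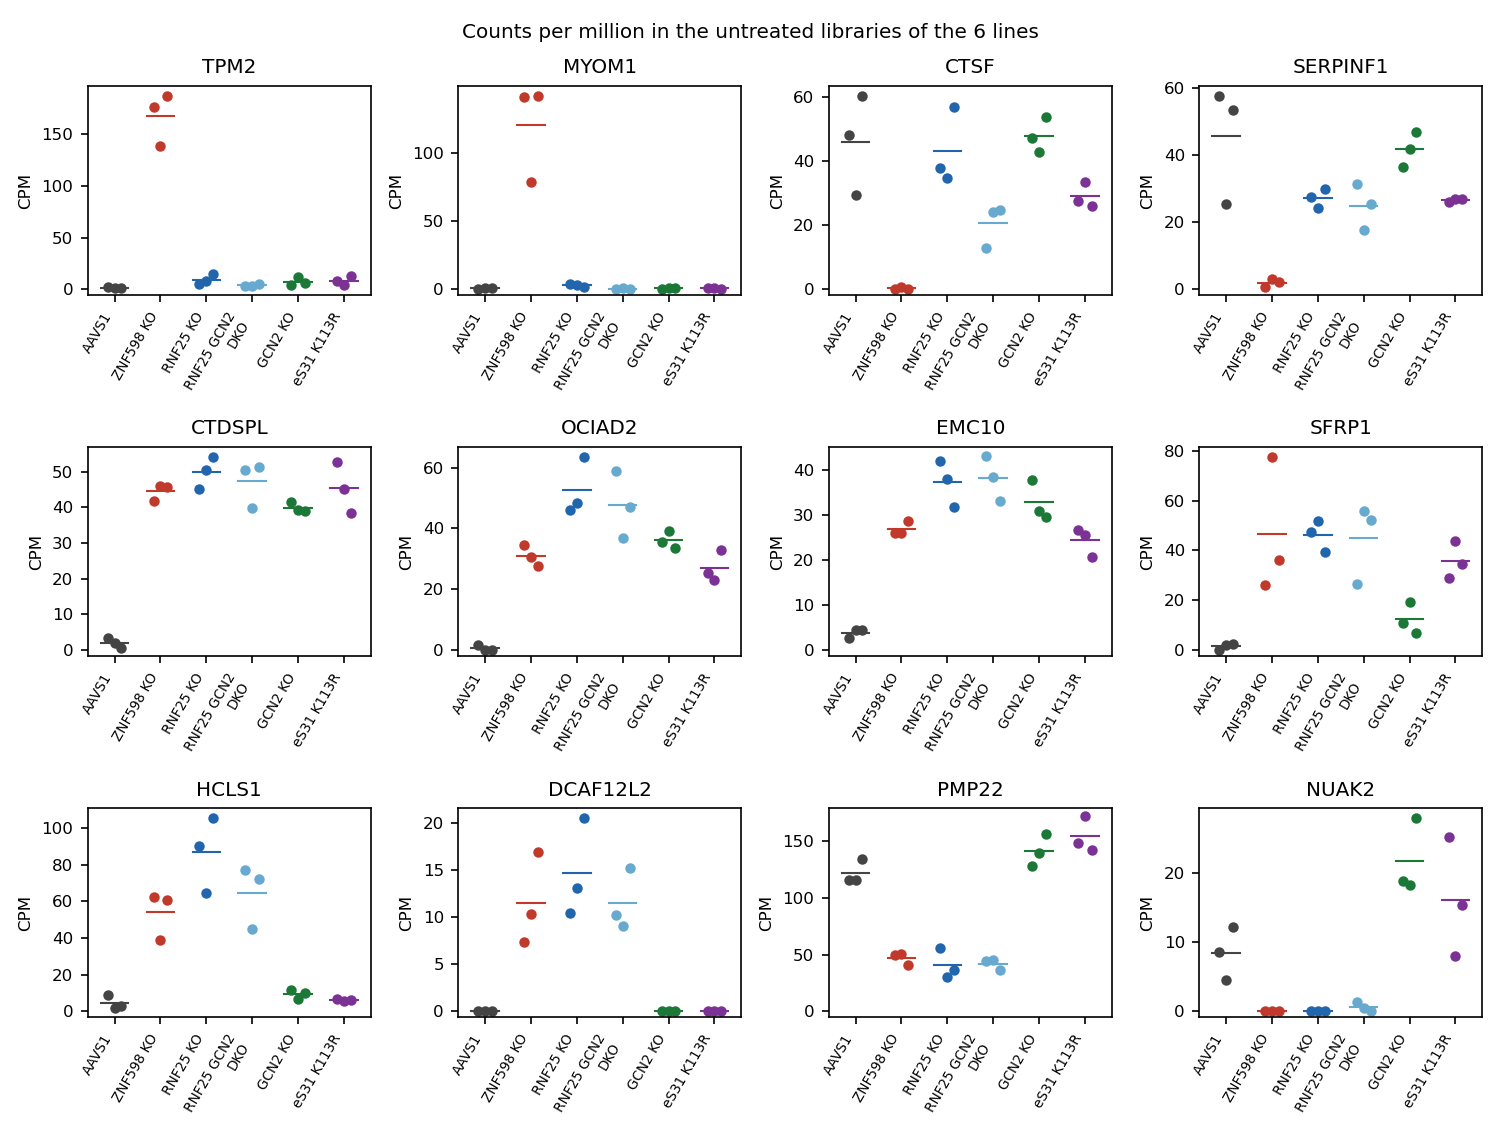
CPM (y axis, linear, its own range in each panel) of 12 genes in the 3 untreated libraries of each of the 6 lines; points are libraries and bars are means. TPM2 and MYOM1 are high and CTSF and SERPINF1 low in ZNF598 KO only; CTDSPL, OCIAD2, EMC10 and SFRP1 are lowest in AAVS1, with SFRP1 also lower in GCN2 KO (7 to 19.1 CPM) than in the other 4 lines; HCLS1, DCAF12L2, PMP22 and NUAK2 divide ZNF598 KO, RNF25 KO and RNF25 GCN2 DKO from AAVS1, GCN2 KO and eS31 K113R.

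Among the genes with the largest fitted rises, several had few counts. FUT9, a fucosyltransferase, had 0 counts in AAVS1 and in all other untreated edited lines, and stood at 4.65, 12.6 and 7.42 CPM in ZNF598 KO, at least 13.2-fold higher than in AAVS1 (adjusted p = 0.0165). The drug efflux pump ABCB1 stood at 8.64, 9.77 and 6.36 CPM (at least 12.9-fold higher) and the Notch-related receptor DNER at 9.31, 9.77 and 5.83 CPM (at least 12.9-fold higher), both with 0 counts in AAVS1. VSNL1, a neuronal calcium sensor, PTPN3, a tyrosine phosphatase, and TLE1, a transcriptional corepressor, were at least 12-fold, 11.7-fold and 11-fold higher and were also at 0 in AAVS1. BCHE, or butyrylcholinesterase, was at least 9.82-fold higher. PTPN3, TLE1 and DNER did not pass against the other 4 untreated edited lines (adjusted p = 0.208, 0.242 and 0.192). VSNL1, ABCB1, BCHE and FUT9 did (adjusted p = 0.0471, 5.9e-04, 3.1e-04 and 6.9e-05). PTPN3 was at 4.97 to 16.2 CPM in untreated RNF25 KO and at 8.53 to 10.9 CPM in untreated RNF25 GCN2 DKO. VSNL1, PTPN3 and TLE1 passed whichever 1 of the 6 libraries was left out, but not in the fit to the 6 libraries alone (adjusted p = 0.0724, 0.144 and 0.116). ABCB1, DNER, FUT9 and BCHE did not pass in that fit either (0.0687, 0.0694, 0.0879 and 0.145). DESeq2 gave FUT9 an adjusted p of 0.908 and BCHE one of 0.0583. ABCB1 and DNER did not pass without AAVS1 replicate 2 (adjusted p = 0.066 and 0.0685). FUT9 did not pass without AAVS1 replicate 1 (0.0512) or 2 (0.0816) or ZNF598 KO replicate 2 (0.0596). BCHE did not pass without AAVS1 replicate 1 (0.0758), 2 (0.128) or 3 (0.0624) or ZNF598 KO replicate 1 (0.0644) or 3 (0.0852).

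Among the large falls, SLC17A9, a vesicular nucleotide transporter, stood at 3.44, 4.49 and 12.2 CPM in AAVS1 and 0, 0.575 and 0 CPM in ZNF598 KO (-4.64 ± 0.97, adjusted p = 0.00569). It did not pass without AAVS1 replicate 3 (adjusted p = 0.0598) or ZNF598 KO replicate 3 (0.0687), in limma-voom (0.0788) or in the fit to the 6 libraries alone (0.185). PGM5, a phosphoglucomutase-like protein of adhesion sites, stood at 12.9, 11 and 19.9 CPM in AAVS1 and 1.33, 3.45 and 3.71 CPM in ZNF598 KO (-2.30, adjusted p = 0.0318). It lost the call in 7 fits, with adjusted p of 0.0558 to 0.203: without AAVS1 replicate 1 or 3, without any 1 of the 3 ZNF598 KO libraries, in limma-voom (0.098) and in the fit to the 6 libraries alone (0.185). SH3BP5 stood at 50.8, 18.0 and 14.1 CPM in AAVS1 and 3.32, 2.87 and 8.48 CPM in ZNF598 KO (-2.41, adjusted p = 0.0334), and exons of the opposite strand cover 47.5% of its exon length. Without AAVS1 replicate 1 its change was -1.67 (adjusted p = 0.312), and it did not pass without ZNF598 KO replicate 1 (0.181) or 2 (0.185), in limma-voom (0.124) or in the fit to the 6 libraries alone (0.219). Against the mean of the other 4 untreated edited lines, SLC17A9, PGM5 and SH3BP5 did not pass (adjusted p = 0.0768, 0.101 and 0.666).

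The untreated difference was then set beside the same difference in the azaC-treated libraries. These are separate libraries of the same 2 lines, so they do not separate loss of ZNF598 from another difference between the lines. There 75 genes passed (49 higher and 26 lower; 0.677% of the genes tested, with 0.442% higher and 0.235% lower), or 120 with the replicate number as a block. Of the 103 genes called in untreated cells, 47 were called with azaC in the same direction and 0 in the other, which is 45.6% of the untreated calls and 62.7% of the azaC calls. The fitted change had the same sign in all 103, and in 84 of them the azaC-treated libraries of the 2 lines did not overlap, as in 13.9% of all tested genes. TPM2 stood at 7.27, 6.05 and 4.09 CPM in azaC-treated AAVS1 and 172, 154 and 212 CPM in ZNF598 KO (4.93 ± 0.42). CTSF stood at 36.3, 31.8 and 51.9 CPM in AAVS1 and 0, 0.69 and 0 CPM in ZNF598 KO (-6.98 ± 0.60). BMP7 had 0 counts in azaC-treated AAVS1 and stood at 31.7, 57.3 and 53.8 CPM in ZNF598 KO. The gap was thus present in both sets of libraries for these 3 genes.

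SERPINF1 differed by -2.45 ± 0.31 with azaC and by -4.47 ± 0.38 without. The ZNF598 KO libraries held it at 0.665 to 2.87 CPM untreated and at 6.46 to 10.8 CPM with azaC. The difference between the 2 changes, 2.03 ± 0.54, did not pass (adjusted p = 1), so a weaker gap with azaC is not shown. CXXC5, a zinc finger protein of Wnt signalling named after its values were seen, was 1.72 higher in untreated ZNF598 KO (adjusted p = 0.00191) and 0.07 higher with azaC (adjusted p = 0.998). By the test of the difference of differences, 0 of 11078 genes passed in edgeR, DESeq2 and limma-voom alike, and 341 had an unadjusted p under 0.05 in edgeR.

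Against the other 4 untreated edited lines, 204 genes passed (115 higher and 89 lower in ZNF598 KO; 1.84% of the genes tested, with 1.04% higher and 0.803% lower). Leaving out ZNF598 KO replicate 1, 2 or 3 lowered this count to 102, 125 and 104. This comparison shares the ZNF598 KO libraries with the first, so only values of single genes are set side by side above. It shares no library with the azaC comparison, and 33 of the 75 azaC calls, or 44%, passed here in the same direction. The count was 180 without the 2 libraries titled eS32_K223R. The 415 tested genes of the X chromosome had a median of 0.30 in this comparison and of -0.01 against AAVS1.

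**Figure D3:**
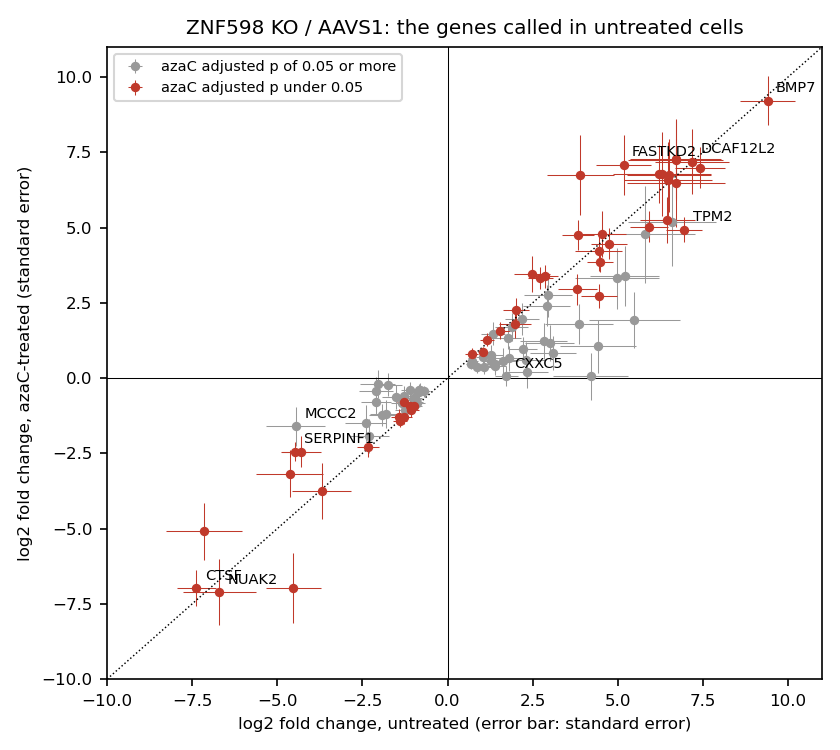
Log2 fold change of ZNF598 KO over AAVS1 in azaC-treated cells (y axis) against that in untreated cells (x axis) for the 103 genes called in untreated cells, with standard errors as bars and equality as the dotted line. Red points are the 47 genes that also passed with azaC; all 103 lie in the lower left or upper right quadrant.

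Lists of pathways that respond to stalled or damaged translation, and of other programmes, mostly held no called gene in untreated cells. With 0.93% of all genes called, fewer than 1 call would fall in a list of these sizes, so a count of 0 says little about a pathway, and the medians are given beside it. The 36 tested genes of the integrated stress response had 0 calls and a median change of -0.11, beside 0.00 for all genes. The alanyl-tRNA synthetase gene AARS1 (-0.63 ± 0.21, adjusted p = 0.185) and SHMT2, a serine hydroxymethyltransferase of mitochondria (0.49 ± 0.20, adjusted p = 0.391), had the smallest p-values. Of 21 tested ribosome rescue and ribosome-associated quality control genes 0 were called (median 0.02), with the termination factor ETF1 at -0.39 ± 0.15 and the RNA helicase SKIC2 at 1.10 ± 0.41. Of 23 mRNA decay factors 0 were called (median -0.11), with CNOT1, the scaffold of the deadenylase complex, at -0.47 ± 0.16. Of 8 genes of UFMylation, a ubiquitin-like modification of the ribosome at the endoplasmic reticulum, 0 were called (median -0.12). The 22 immediate early genes (median 0.32) and the 9 NF-kB and cytokine genes (median -0.30) had 0 calls.

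The other programmes with 0 calls were the 19 interferon-stimulated genes (median 0.19, with the ubiquitin ligase DTX3L at 1.75 ± 0.48 and adjusted p = 0.0632), the 24 genes of endoplasmic reticulum stress (median -0.02), 19 heat shock genes (-0.23), 21 p53 targets (0.04), 22 cholesterol genes (-0.22, with HMGCS1, the synthase that starts the pathway, at -0.65 ± 0.19 and adjusted p = 0.0981) and 17 NRF2 targets (-0.15). The 24 autophagy genes (-0.02, with MAP1LC3B at -0.72 ± 0.20 and adjusted p = 0.0736), 37 translation factors (-0.07), 35 proteasome genes (0.02), 23 hypoxia and glycolysis genes (-0.07), 24 S phase genes (-0.15) and 22 G2 and M phase genes (0.05) had none either. The same held for 27 adhesion and matrix genes (0.11), 18 targets of Wnt, Notch and BMP signalling (0.06), 13 antigen presentation genes (0.41) and 11 imprinted genes (-0.22). A p above the threshold at this depth does not show that a gene was level between the lines.

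In 4 lists a single member passed, lower in ZNF598 KO each time. The amino acid transporter SLC7A5 (1 of 14 tested transporters) fell from 105, 140 and 177 CPM to 61.2, 73.0 and 78.9 CPM (-0.98 ± 0.22, adjusted p = 0.0106). The ribosome biogenesis nuclease NOB1 (1 of 40, list median -0.20) fell from 140, 115 and 186 CPM to 72.5, 82.2 and 91.1 CPM (-0.84 ± 0.20, adjusted p = 0.0219). MT1F (1 of 4 metallothioneins, list median -0.85), of a family of close copies, fell from 98.1, 53.9 and 123 CPM to 47.2, 33.3 and 48.7 CPM (-1.08 ± 0.25, adjusted p = 0.0192). The groups did not overlap in these 3 genes, and the fourth, MT-ND6, is described with the mitochondrial genes. None of these 3 genes passed in the fit to the 6 libraries alone (adjusted p = 0.224, 0.377 and 0.42). SLC7A5 did not pass without AAVS1 replicate 3 (adjusted p = 0.0877) or ZNF598 KO replicate 1 (0.0935). NOB1 did not pass without AAVS1 replicate 3 (0.148) or ZNF598 KO replicate 1 (0.136) or 2 (0.0936), and MT1F did not without AAVS1 replicate 1 (0.0771) or 3 (0.152) or ZNF598 KO replicate 2 (0.172), or in limma-voom (0.0627).

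SLC7A5, NOB1 and MT1F all lie on the long arm of chromosome 16, the chromosome whose short arm holds ZNF598. Of 221 tested genes there, 9 were called lower and 0 higher, or 4.07% against 0.93% of all genes. The other 6 were SNTB2, CYB5B, RFWD3, POLR2C, ATMIN and the transcription factor MAF. USP10, named above and not called (-0.37 ± 0.17), also starts on this arm, at 84699978. For most other uncalled list members named above, positions are not given here. MAF stood at 18.1, 10.5 and 5.14 CPM in AAVS1 and 0, 2.30 and 0 CPM in ZNF598 KO, and did not pass without AAVS1 replicate 1 (adjusted p = 0.116) or ZNF598 KO replicate 1 (0.129) or 3 (0.151), or in the fit to the 6 libraries alone (0.28). SNTB2, a cytoskeletal adaptor, was the member of the 9 that passed in every fit without 1 library, but it did not pass with no filter on low counts or in the fit to the 6 libraries alone, with an adjusted p of up to 0.304. The count was 6 without AAVS1 replicate 2 and 8 with offsets corrected for GC content.

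Most genes of the arm were lower in ZNF598 KO. The median change of the 221 genes was -0.33, and 77.8% of them were below 0. In 4 consecutive parts of 55, 55, 55 and 56 genes, divided after the values of the arm were seen, the median was -0.32, -0.28, -0.40 and -0.24, and the 9 calls fell 2, 1, 5 and 1 to a part. The median over the arm was -0.38 without AAVS1 replicate 2, -0.35 with the GC correction, -0.38 in the azaC-treated libraries and -0.36 against the other 4 lines. The per-library median, taken against the mean of all 45 libraries, was -0.28, -0.26 and -0.29 in untreated ZNF598 KO and -0.34, -0.27 and -0.28 with azaC. It was 0.06, -0.07 and 0.12 in untreated AAVS1, and -0.02 to 0.15 in the untreated libraries of the other 4 lines. The arm was taken as the genes that start past the gap between 34268649 and 46580554. The 260 tested genes of the short arm had 0 calls and a median of 0.14. The 37 tested genes within 500 kb of ZNF598 had 0 calls and a median of 0.46, and the 643 genes of chromosome 19 a median of 0.19. These 3 values moved to -0.01, 0.07 and 0.01 without AAVS1 replicate 2, and to 0.05, 0.29 and 0.05 with the GC correction. The number of copies of chromosome 16 was not measured.

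**Figure D4:**
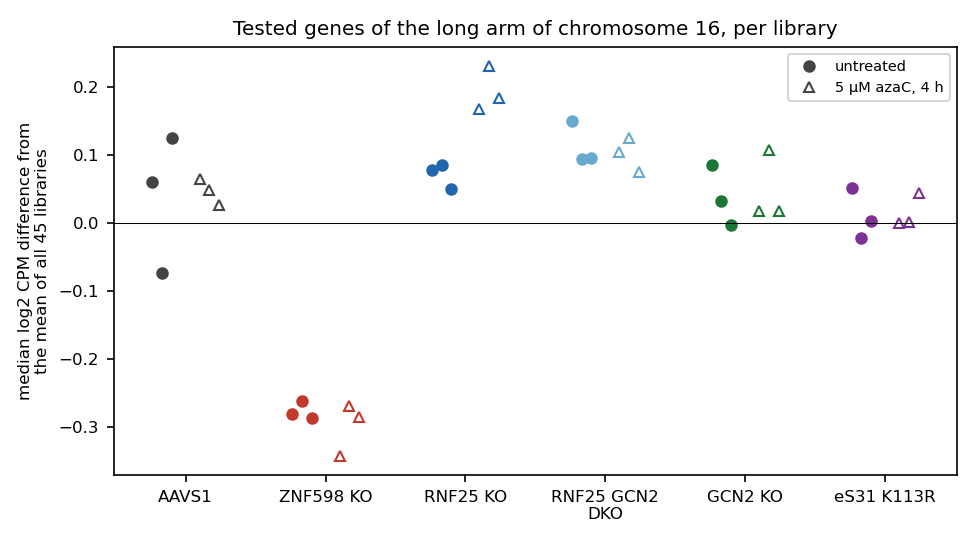
Median over the 221 tested genes of the long arm of chromosome 16 of the log2 CPM difference from the mean of all 45 libraries (y axis), for each untreated (filled circles) and azaC-treated (open triangles) library of the 6 lines (x axis). The 6 ZNF598 KO libraries lie between -0.26 and -0.34, below the libraries of the other 5 lines.

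MT-ND6 and MT-TP, both encoded on the minus strand of the mitochondrial genome, were lower in ZNF598 KO. The mitochondrial genome is read from both strands; most mRNAs are plus-strand genes, and MT-ND6, a subunit of respiratory complex I, is the protein gene of the minus strand. MT-ND6 (ENSG00000198695, 14149 to 14673) stood at 2641, 2359 and 2977 CPM in AAVS1 and 862, 864 and 1251 CPM in ZNF598 KO (-1.42 ± 0.25, adjusted p = 3.1e-04). The 2 groups were well apart. MT-TP, the minus-strand gene of a proline tRNA, stood at 9741, 8558 and 10568 CPM in AAVS1 and 4389, 3757 and 5395 CPM in ZNF598 KO (-1.09 ± 0.19, adjusted p = 4.9e-04), and missed the threshold in the fit to the 6 libraries alone (adjusted p = 0.0775). These were the 2 called genes of the 28 tested on this genome (7.14%, against 0.93% of all genes), and 0 were called higher. MT-ND1, the first protein gene of the plus strand (-0.98 ± 0.28, adjusted p = 0.0884), and MT-ND4L (-0.76 ± 0.21, adjusted p = 0.0694) did not pass against AAVS1, but did against the other 4 untreated lines (-0.92 and -0.77, adjusted p = 0.0268 and 0.00764), and MT-CO1, MT-CO2, MT-CO3 and MT-CYB had changes of -0.29, 0.00, 0.09 and 0.03. The other minus-strand genes are tRNA genes and did not pass: MT-TS1 was at -0.27 ± 0.21, MT-TY at -0.10 ± 0.23, MT-TC at -0.95 ± 0.69, MT-TE at -1.35 ± 0.76 and MT-TQ at -0.49 ± 0.52. Among plus-strand tRNA genes MT-TH was at -3.29 ± 0.89 (adjusted p = 0.0622) and MT-TM at -0.94 ± 0.33. Values well below 0 were thus found on both strands. The libraries were made from polyA RNA, and the strand setting of the counting is not given in the sources used here.

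The sum over the minus strand is mostly made of MT-TP and MT-ND6, so it restates these 2 genes. Summed over the tested genes of each strand, minus-strand counts were 18.8, 21.8 and 23.4% of the plus-strand counts in AAVS1 and 9.34, 9.92 and 11.9% in ZNF598 KO. Plus-strand genes held 5.76 to 6.66% of all counts in AAVS1 and 5.62 to 6.27% in ZNF598 KO, so the 2 lines overlapped in that share. The minus-to-plus percentage was 7.73 to 13.3% in RNF25 KO and RNF25 GCN2 DKO, 24.7 to 28.1% in GCN2 KO and 20.0 to 23.5% in eS31 K113R. ZNF598 KO therefore lay with the RNF25 KO and RNF25 GCN2 DKO lines in this percentage. It did so too for NUAK2, and for HCLS1, DCAF12L2 and PMP22, which were picked for that pattern. It did not for BMP7, TPM2, MYOM1 or CTSF. With azaC the minus-to-plus percentage was 15.4 to 18.3% in AAVS1, 6.63 to 8.42% in ZNF598 KO and 10.4 to 12.8% in eS31 K113R. With 3 libraries against 3 an exact permutation test of this percentage cannot go below p = 0.1, and none was run.

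**Figure D5:**
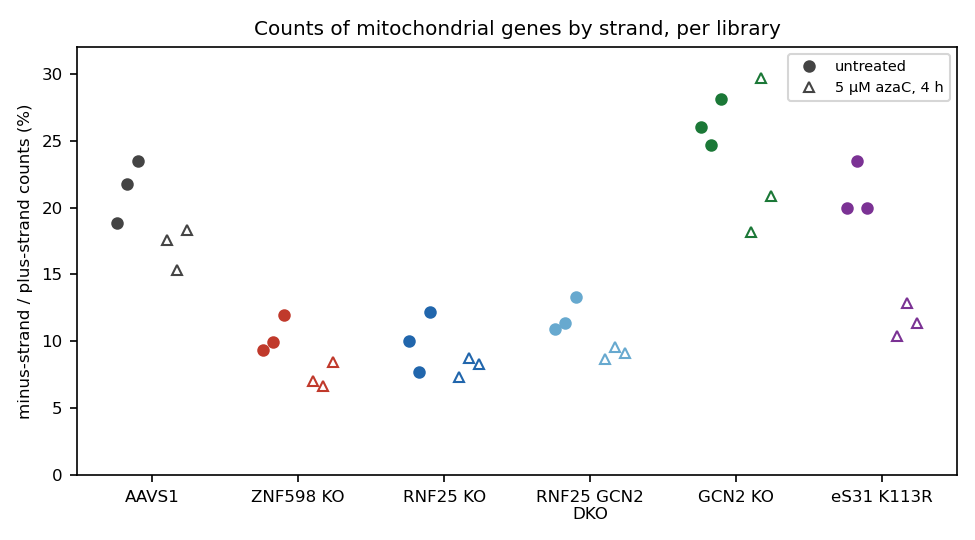
Counts of minus-strand mitochondrial genes as a percentage of those of plus-strand mitochondrial genes (y axis) in each untreated (filled circles) and azaC-treated (open triangles) library of the 6 lines (x axis). Untreated ZNF598 KO libraries lie at 9.34 to 11.9% and untreated AAVS1 libraries at 18.8 to 23.4%.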

How the data were processed

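PolyA RNA of HAP1 cells was sequenced (CORALL mRNA-Seq V2 libraries, per the labels). The authors deposited raw counts per gene. The submitters' processing notes name STAR 2.7.10b, HTSeq 0.9.1 and GRCh38; the gene annotation, the strand setting and any use of molecular identifiers were not given in the sources used here. All 45 library columns were used; totals were 1135498 to 2478875 counts, and gene identifiers with no symbol (2862, 0.0286% of counts) stayed in the library sizes. Gene positions came from GENCODE annotation of GRCh38.

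Genes were kept by edgeR 4.0.16 filterByExpr (minimum count 10), scaled by TMM and fitted over all 45 libraries as 15 group means with 30 residual degrees of freedom (R 4.3.3; common biological coefficient of variation 22.1%). Quasi-likelihood F tests gave p-values, Benjamini-Hochberg adjusted over 11078 genes; the SE is the size of the log2 fold change over the square root of F. The procedure was tested on simulated data. Intervals on ratios are exact binomial ones, and with the floor of 3 counts they cover counting error only.

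Replicate pairs of both lines differed by more than sampling noise (chi-square per degree of freedom 3.26 to 18.7). Same-numbered ZNF598 KO and AAVS1 libraries deviated together (r = 0.13, 0.28 and 0.20 across genes for replicates 1, 2 and 3), so the numbers were taken to pair the libraries. The values above nonetheless come from the fit without this pairing, unless a block is named. The fit with the block is given for counts of calls and, for genes named by rule, where it changes a call. Other genes whose call it changes are not listed.

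The comparison and the 35 gene lists were chosen with earlier results of these data known. Named genes were ZNF598, the collision and ubiquitin-target lists, the 12 largest called rises and falls whose groups did not overlap, list members that passed, and up to 2 members with the smallest p of other lists; genes beyond this rule were chosen after their values were seen. Alternatives were size factors, filters, DESeq2, limma-voom, the 6 libraries alone, the block, GC-corrected offsets and leaving out libraries. One result is not reported here.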

Additional observations from a re-analysis of the deposited data

How the results depend on the processing

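The 103 calls of the untreated comparison became 23 when only the libraries compared were fitted, 199 with the replicate block and 189 with GC-corrected offsets and the replicate block. Leaving out 1 of the 6 libraries gave 65 to 131 calls. Without AAVS1 replicate 3, 94 were higher and 37 lower. The 75 calls with azaC became 120 with the replicate block, 136 with the block and GC correction, and 51 to 61 without 1 library. The 204 calls against the other 4 lines became 102 to 197 without 1 library. The count of 0 for the difference of differences held under every alternative run. The other size factors, filters, tools and GC-corrected offsets alone gave 72 to 142 calls in untreated cells (limma-voom split them 73 higher and 33 lower), and leaving out AAVS1 replicate 2 with the block gave 88. The GC corrections with a block and the omission with a block were chosen after seeing the data. Among the genes named by rule, the block moved the call of ZNF598 (adjusted p = 0.0267) and no other call. None of the 103 called genes changed sign. Depth limits low genes: the median tested gene had 27 to 66 counts per library over all 45 libraries.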
